A study of Homo sapiens with 12 samples.

Results

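The genes described here lie on the long arm of chromosome 13, in one stretch whose genes gave lower signals in a control clone of Rh30 cells than in the other cultures of the study. All array genes with a probe between the stretch's limits were taken, whatever their values, and a gene was read from its brightest probe. This gave 178 of the 30238 genes on the array, with 232 probes. The first of these probes starts at position 56787459 and the last ends at position 109238500 of chromosome 13 (build NCBI36). The limits of the stretch were chosen from the comparisons with the control clone, so the values of those comparisons are a description, and no test was made on them.

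RNA was measured on 12 Agilent whole human genome arrays with a Cy3 and a Cy5 channel. The cultures compared were all Rh30: the untransfected parental cells (WT), a single clone with a non-targeting control shRNA (CON) and a single clone with an shRNA against PAX3-FKHR (KD1), both shRNAs being delivered by a retroviral vector with a puromycin resistance gene. The clones grew for 24 h after plating in 1 μg/mL puromycin and WT grew without it. Clone, vector and puromycin therefore cannot be told apart from each other in WT vs CON. In KD1 vs WT the knockdown cannot be told apart from clone, vector and puromycin either. In KD1 vs CON both cultures had vector and puromycin, but the knockdown cannot be told apart from other differences between these single clones. Each clonal culture stands for 1 clone only. Every pair of cultures (WT vs CON, KD1 vs CON, KD1 vs WT) was compared in 2 biological replicates with swapped dyes. The 6 RNA extracts behind these arrays are each on 4 of them. WT vs CON occupies 1 slide, and each replicate of the KD1 comparisons another, so slide and replicate cannot be told apart there. Between 64.4% and 73.6% of the spots of a channel were well above background. The rhabdomyosarcoma markers MYOD1, MYOG, DES, FGFR4, CHRNA1 and MYCN were well above background in all 8 channels of every culture, PTPRC and ALB in none, and PECAM1, VWF and CD3E, which mark other cell types, also in all 8. The epithelial markers EPCAM and CDH1 were so in 4 and 2 of the 8 WT channels and in 0 of CON and KD1, and the astrocyte marker GFAP in 6 of WT, 4 of CON and 6 of KD1; their part in the results was not tested.

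Rh30 is a cell line from an alveolar rhabdomyosarcoma, a childhood tumor with features of skeletal muscle. Its fusion protein PAX3-FKHR arises from a translocation that joins PAX3 on chromosome 2 to FKHR (FOXO1), which itself lies on the long arm of chromosome 13. Genes of the distal long arm have no common function. They include insulin and growth factor signaling proteins, ubiquitin enzymes, proteins of the secretory pathway, a DNA repair nuclease and MIR17HG, the host transcript of the miR-17-92 microRNA cluster, which is known for promoting cell growth.

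The 6 main mature microRNAs of that cluster are shown because their host transcript is a 13q gene on which the 3 cultures were ordered alike in both replicates. The arrays measured the host transcript and not the microRNAs. Sequences are those of RefSeq for GRCh38.p14, with the seed (bases 2 to 8) in capitals. The microRNAs fall into 4 seed groups over 765 bases, with miR-17-5p and miR-20a-5p in the first, miR-18a-5p in one of its own, both miR-19 forms in the next and miR-92a-3p in the last.
hsa-miR-17-5p: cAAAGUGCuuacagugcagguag
hsa-miR-20a-5p: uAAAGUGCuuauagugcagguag
hsa-miR-18a-5p: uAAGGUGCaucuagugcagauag
hsa-miR-19a-3p: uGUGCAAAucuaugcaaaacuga
hsa-miR-19b-3p: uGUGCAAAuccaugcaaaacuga
hsa-miR-92a-3p: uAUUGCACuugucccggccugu

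MIR17HG gave log2 ratios of 1.53 and 1.56 in WT vs CON, of 0.68 and 0.57 in KD1 vs CON and of −0.99 and −0.87 in KD1 vs WT. WT was thus the highest culture, CON the lowest and KD1 between them in both replicates. In KD1 vs WT, whose arrays hold no CON RNA, the difference did not pass the threshold after adjustment over all probes (limma, log2 ratio −0.93 ± 0.19 SE, adjusted p = 0.0803). A second probe of the same transcript gave mean log2 ratios of 1.79 and 0.53 against CON.

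A positive log2 ratio against CON means a lower signal in CON. Of the 178 genes, 74 exceeded the limit set by the negative controls throughout both CON comparisons and are called expressed, and 67 were not well above background on any array. A gene was called shifted when all 4 replicate values of the CON comparisons were above 0, and 53 of the 74 genes (71.6%) were shifted, while 15.6% of all expressed genes met this definition. The definition was applied to the comparisons that chose the stretch, so this count is a description. WT vs CON and KD1 vs CON share the CON extracts, so the 4 values of a gene are not independent. The 74 genes had a median log2 ratio of 0.94 in WT vs CON (quartiles 0.37 and 1.23; 0.85 and 0.92 by replicate) and of 0.74 in KD1 vs CON (quartiles 0.23 and 0.99; 0.78 and 0.66 by replicate). The medians of all expressed genes were −0.03 and −0.02. On the linear scale the member medians equal 1.92-fold and 1.68-fold higher signals in WT and KD1 than in CON. Fewer copies of a transcript per cell and fewer cells with the transcript cannot be told apart in these bulk RNAs.

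Most of the 50 expressed genes that match a current protein-coding gene were shifted. Their median log2 ratio was 1.13 in WT vs CON against 0.84 in KD1 vs CON, and 44 of them (88.0%) were shifted, against 16.4% of all expressed protein-coding genes. Of the 5 expressed non-coding genes and pseudogenes, 1 was shifted, MIR17HG, and the medians of these 5 were −0.11 and −0.08. Of the 19 expressed entries with no current gene matched, 8 were shifted, with medians of 0.29 and 0.22. By array, 51 of the 74 genes, 43 of them protein-coding, were above 0 on all 8 arrays of the CON comparisons, against 10.6% of all expressed genes.

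**Figure D1:**
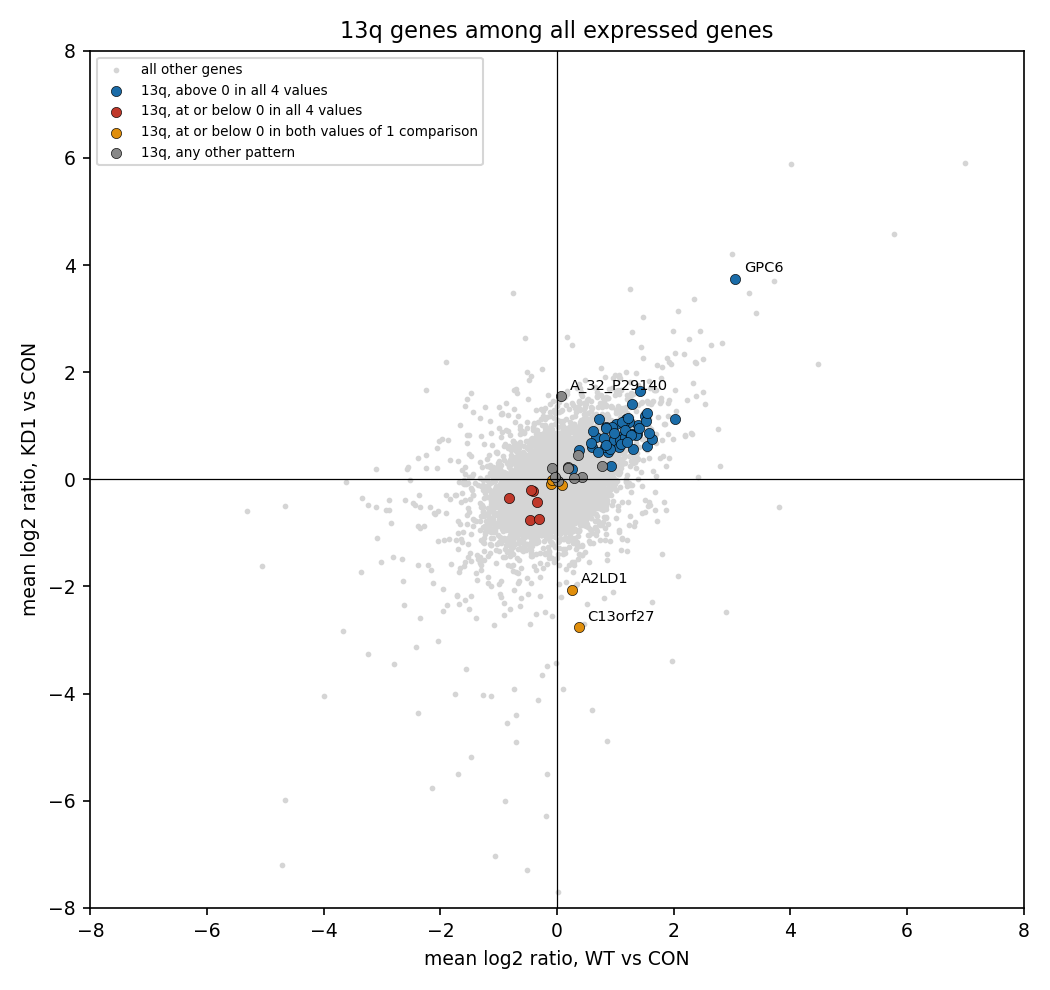
Mean log2 ratio in WT vs CON (horizontal axis) against KD1 vs CON (vertical axis) for all expressed genes (light grey) and the 74 expressed 13q genes (coloured by the signs of their 4 replicate values). Both axes share the CON extracts. The 53 shifted genes lie above and right of the crossing lines, GPC6 stands apart from them, and A2LD1 and C13orf27 lie far below 0 in KD1 vs CON only.

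The size of the shift differed among the shifted genes. Their means ranged from 0.26 to 3.06 in WT vs CON and from 0.18 to 3.74 in KD1 vs CON, and the SD across genes was 0.43 and 0.48. The SD between the 2 replicates of a gene was smaller, with a median of 0.20 and 0.13. Of the 53 genes, 41 lay within 0.5 of the member median in both comparisons, and 16 had a mean of at least 1 in both. The shares of all genes for these counts were not determined, so nothing is read from them. Both replicate values were above 0 in 66 of 92 genes in WT vs CON (27.3% of all genes there) and in 59 of 74 in KD1 vs CON (34.2% of all genes there). A mean of at least 1 was found in 41 of the 92 genes above the limit in WT vs CON (2.65% of all genes there) and in 18 of 74 in KD1 vs CON (2.11% of all genes there). Among the shifted genes, the 27 dimmer ones had medians of 1.16 and 0.85, and the 26 brighter ones 1.14 and 0.84. Genes without the shift are left out of these medians by definition. They therefore do not show whether the shift depends on brightness. In 19 genes more than 1 probe was above the limit, and 19 of their 23 other probes were also above 0 in all 4 values.

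In the order of the genes along the chromosome, the stretch did not begin and end with the shift. The first expressed 13q entry, A_24_P349489, had log2 ratios of −0.61 and −0.31 in WT vs CON and of −0.36 and −1.15 in KD1 vs CON. The next, DIAPH3, a formin that organizes actin in cell division, had 0.65 and 0.89 in WT vs CON but 0.54 and −0.05 in KD1 vs CON, and its 3 other probes gave the same pattern of signs. The pseudogene OR7E156P and the entry FLJ25694 followed with 4 values at or below 0 each. The first shifted gene was C13orf37 (MZT1, a component of the microtubule-nucleating complex), with means of 1.17 and 1.12 in the order WT vs CON, KD1 vs CON used for all paired means. Just outside the near end, the expressed genes RP11-431O22.2 and OLFM4 had means of −0.31 and 0.08 in WT vs CON and of −0.90 and −0.31 in KD1 vs CON. Just outside the far end, the collagen IV genes COL4A1 and COL4A2 had means of 1.36 and 1.58 in WT vs CON and of 0.42 and 0.40 in KD1 vs CON.

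**Figure D2:**
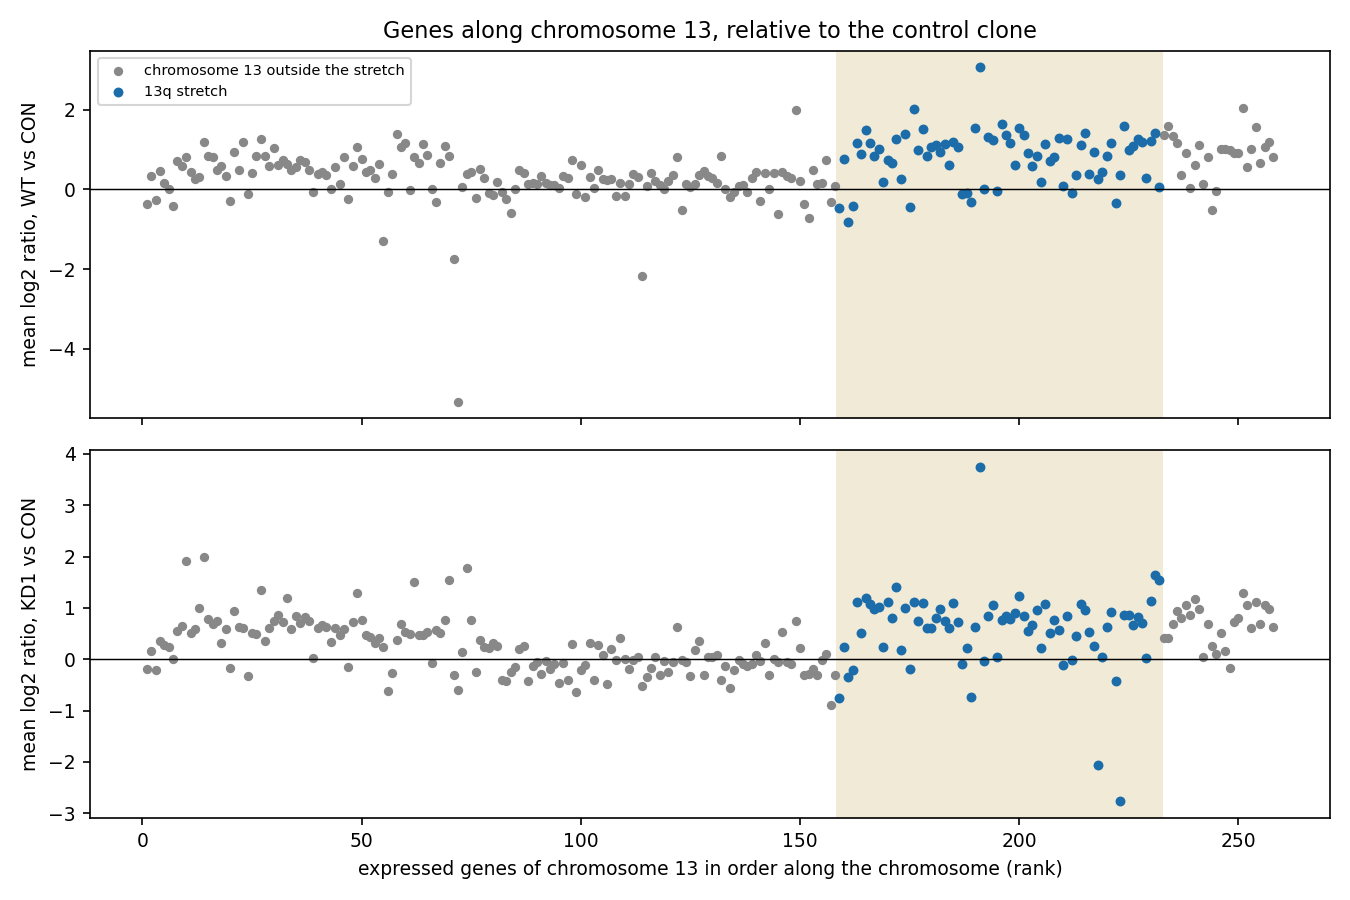
Mean log2 ratio of the 258 expressed genes of chromosome 13 in WT vs CON (top) and KD1 vs CON (bottom), plotted by rank along the chromosome; the shaded band holds the 74 expressed genes of the 13q stretch and each point is 1 gene. Values above 0 continue after the band, and values among the first ranks of the chromosome are also mostly above 0, with values near 0 in between.

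The 26 expressed genes after the stretch had medians of 0.95 and 0.70, close to those of the 13q genes, and 21 of them met the definition of a shifted gene. The 158 expressed genes before it had medians of 0.30 and 0.19, and 69 of them (43.7%) met it. When these were cut in order into 5 bins of 31 or 32 genes, the first 2 bins had medians of 0.54 and 0.52 in WT vs CON and of 0.58 and 0.56 in KD1 vs CON, and 24 of 32 genes in each met the definition, while in the 3 bins next to the stretch the medians lay between 0.14 and 0.22 in WT vs CON and between −0.09 and −0.03 in KD1 vs CON. Within the stretch, 10 bins of 7 or 8 expressed genes had medians between 0.38 and 1.30 in WT vs CON and between 0.38 and 1.00 in KD1 vs CON. In the bin from the entry A_24_P554882 to RAP2A, all 7 genes were shifted.

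Regulators of transcription and RNA were shifted in 9 of 10 expressed genes, with a median of 1.095 in WT vs CON against 0.72 in KD1 vs CON. DIS3, the catalytic nuclease of the RNA exosome, had log2 ratios of 1.52 and 1.48 in WT vs CON and of 1.17 and 1.20 in KD1 vs CON. ARGLU1, a splicing and coactivator protein, lay nearest to the median of this group, with 1.48 and 0.91 in WT vs CON and 0.78 and 0.62 in KD1 vs CON. The zinc finger factors KLF5 and KLF12 and the neural factor POU4F1 were shifted as well. SOX21, an HMG-box factor of neural cells, was not: its values were −0.18 and 0.12 in WT vs CON and 0.03 and 0.05 in KD1 vs CON, so that both comparisons lay around 0. It is a dim gene, with a mean log2 signal of 7.56, but was well above background on all 8 channels of each culture. Dimmer genes were found both with the shift, such as TBC1D4 (7.37), and without it, such as DCT (6.38).

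All 9 expressed signaling genes were shifted, with medians of 1.07 and 0.85. IRS2, an adaptor of the insulin and IGF receptors and the last named gene before the far end, had 1.41 and 1.44 in WT vs CON and 1.58 and 1.70 in KD1 vs CON, with a spread between replicates far below the ratio itself. Its dimmer probe gave means of 0.47 and 0.99. TBC1D4, which controls glucose transporter traffic, had 0.51 and 0.94 in WT vs CON and 0.98 and 1.26 in KD1 vs CON. FARP1, a RhoGEF-family protein and the brightest shifted gene, had 0.69 and 0.72 in WT vs CON and 0.48 and 0.55 in KD1 vs CON. The kinase STK24, also among the 6 brightest 13q genes, had means of 0.81 and 0.76. The receptor tyrosine kinase inhibitor SPRY2 and the ephrin EFNB2 had means of 1.07 and 1.26 in WT vs CON and of 0.73 and 0.83 in KD1 vs CON.

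Of 4 expressed genes of DNA repair and mitosis 3 were shifted. C13orf34 (BORA, an activator of Aurora A) had 0.80 and 0.96 in WT vs CON and 0.85 and 0.17 in KD1 vs CON, a wide spread in the latter. PIBF1, a centrosome protein, had means of 1.17 and 1.08, and ERCC5, a nuclease of nucleotide excision repair, had 1.31 and 0.88 in WT vs CON and 0.58 and 0.76 in KD1 vs CON. DIAPH3 was the gene of this group that did not meet the definition.

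All 7 expressed genes of protein turnover were shifted, with medians of 1.12 and 0.93. The ubiquitin hydrolase UCHL3 had 0.69 and 1.86 in WT vs CON, far apart, and 1.41 and 1.40 in KD1 vs CON. MYCBP2, a large ubiquitin ligase, had 1.91 and 1.14 in WT vs CON and 1.24 and 0.94 in KD1 vs CON. TPP2, a cytosolic peptidase, lay at the median of the group with means of 1.17 and 0.93. COMMD6, a COMM-domain protein, was the lowest of the group with means of 0.67 and 0.80.

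The 7 expressed genes of the secretory pathway and lysosome were all shifted, and their medians were the highest of the groups with more than 1 expressed gene, 1.41 and 0.96. DNAJC3, an endoplasmic reticulum cochaperone, had 1.75 and 1.32 in WT vs CON and 1.26 and 1.21 in KD1 vs CON. KDELC1 (POGLUT2), a glucosyltransferase of that compartment, had means of 1.58 and 0.87. TM9SF2 had means of 1.41 and 0.96, and TMTC4, at 0.85 and 0.63, was the lowest of the group.

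Of 6 expressed metabolic and transport genes 4 were shifted. TGDS had 1.25 and 1.36 in WT vs CON and 0.94 and 0.74 in KD1 vs CON. PCCA, a subunit of propionyl-CoA carboxylase, had 1.03 and 0.83 in WT vs CON but only 0.39 and 0.10 in KD1 vs CON. DCT, the melanin enzyme dopachrome tautomerase, lay around 0, with −0.30 and 0.32 in WT vs CON and −0.09 and 0.04 in KD1 vs CON, and was one of the dimmest expressed genes (mean log2 signal 6.38). A2LD1, the remaining exception, is described with KD1 vs WT.

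Among 12 genes of adhesion and the cell surface only GPC6, a glypican that binds growth factors through its heparan sulfate chains, was above the limit. It had the highest ratios of all 13q genes, with 4.13 and 1.99 in WT vs CON and 3.80 and 3.69 in KD1 vs CON. Its CON signal was above background in 6 of 8 channels. Its mean log2 signals per extract were 8.53 and 7.48 in WT, 4.18 and 5.73 in CON and 7.87 and 9.45 in KD1, so that the replicates differed by more than 1 in every culture while CON stayed below the others. In KD1 vs WT the values had opposite signs, −0.63 and 2.07.

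**Figure D3:**
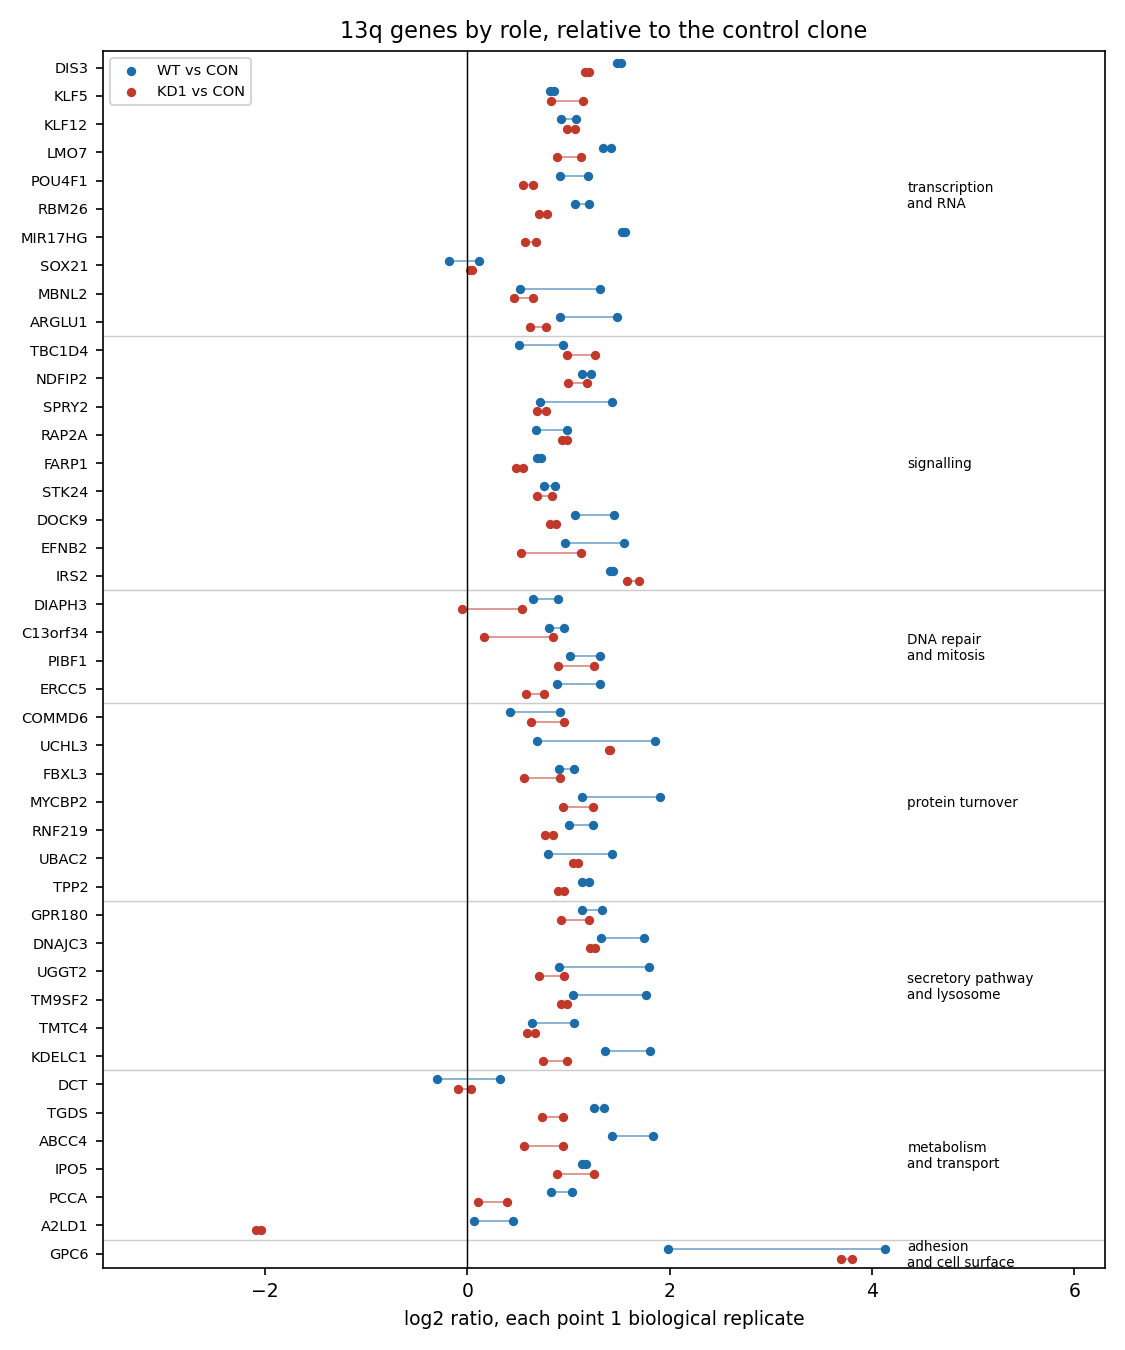
Log2 ratios of the 13q genes named by role group, WT vs CON in blue and KD1 vs CON in red; each point is 1 biological replicate (mean of a dye-swap pair) and a line joins the 2 replicates. Nearly all points lie right of 0, SOX21 and DCT straddle it, A2LD1 lies left of it in KD1 vs CON, and GPC6 lies farthest right.

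The genes without the shift were mostly pseudogenes and entries with no current gene. Of the 21 that were not shifted, 6 had all 4 values at or below 0 (19.1% of all expressed genes did), 5 had both values of 1 comparison there (32.7%), and 10 had another pattern (32.6%). The 6 were A_24_P349489, OR7E156P, FLJ25694, A_24_P255663, BTF3L1 and hCG_2011852. BTF3L1 (BTF3P11), a processed copy of a transcription factor gene of another chromosome, was the brightest of all 13q genes (mean log2 signal 14.9), with −0.44 and −0.45 in WT vs CON and −0.06 and −0.33 in KD1 vs CON. OR7E156P, an olfactory receptor pseudogene of a family with many near-identical copies, had −1.06 and −0.59 in WT vs CON and −0.43 and −0.26 in KD1 vs CON, and its other probe gave means of −0.83 and −0.29. A probe on a copy can also bind RNA of its relatives, so the signals of such pseudogenes are uncertain, and their part in the result was not tested. The entry A_24_P255663, also among the 6 brightest, had −0.40 and −0.22 in WT vs CON and −0.42 and −1.06 in KD1 vs CON. The only protein-coding gene of the 6, hCG_2011852 (LRTM3), was the dimmest of them, with a mean log2 signal of 5.88 and values of −0.50 and −0.17 in WT vs CON and of −0.30 and −0.56 in KD1 vs CON.

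Several genes lay near the line between shifted and not shifted. LOC390424, a bright entry with no current gene, had 0.03 and 0.55 in WT vs CON and 0.18 and −0.11 in KD1 vs CON. RP11-159J2.1 (CTAGE11P) missed the definition by 1 value, −0.01 in WT vs CON, and DIAPH3 by its value of −0.05. LOC100289373 also missed it by 1 value, with −0.02 and 0.75 in WT vs CON and 0.40 and 0.50 in KD1 vs CON. The shifted gene with the lowest means was the entry A_24_P926484, at 0.26 and 0.18. LOC100129122 was the gene whose probes disagreed by more than 1: the brighter had means of −0.08 and −0.01, the other 0.75 and 1.45.

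KD1 vs WT was the comparison the choice of the stretch did not use, although the same WT and KD1 extracts are on the CON arrays. In it 89 of the 178 genes were above the limit. After adjustment over all 24884 probes, limma called 2 of these genes lower in KD1 and 2 higher; of all genes tested, 0.835% were called lower and 0.336% higher, or 1.17% together. Without adjustment, 17 of the 89 had limma p under 0.05, and 12 of them were lower in KD1. The share of all genes with such p-values was not determined, so no excess is read from these counts. The median log2 ratio of the 89 was −0.14 (−0.08 and −0.22 by replicate), that of the 56 protein-coding ones among them −0.30, and that of all genes 0.00. Both replicates were below 0 in 38 of the 89 (27.7% of all genes) and above 0 in 13 (28.8% of all genes). By role group, 1 of 7 tested metabolic and transport genes was called lower and 1 higher, and no gene of the other groups was called in either direction by limma. The quartiles of the 89 were −0.45 and 0.07.

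C13orf27 (TEX30), whose probe lies at chr13:102216802-102216861 on the minus strand, had log2 ratios of −3.18 and −2.67 in KD1 vs WT (−2.93 ± 0.29 SE, limma adjusted p = 0.00704). Its mean log2 signals per extract were 11.4 and 11.6 in WT, 11.4 and 10.9 in CON and 8.19 and 8.80 in KD1, so that both KD1 extracts were below all others. In WT vs CON it had −0.00 and 0.75, less than most of its neighbors. KDELC1 and BIVM, the next expressed genes, had means of 0.87 and 0.86 in KD1 vs CON, where C13orf27 had −2.76.

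A2LD1 (GGACT), which encodes gamma-glutamylamine cyclotransferase, has its probe at chr13:99981858-99981917 on the minus strand. It had −2.42 and −2.07 in KD1 vs WT (−2.25 ± 0.21 SE, limma adjusted p = 0.00499). Its mean log2 signals were 7.64 and 7.69 in WT, 7.12 and 7.53 in CON and 5.19 and 5.48 in KD1, again without overlap between KD1 and the other cultures. The probe of PCCA, on the plus strand, is the preceding one of the expressed genes, and PCCA differed less between KD1 and WT, with −0.67 and −0.60 (limma adjusted p = 0.178).

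CLYBL, a mitochondrial citramalyl-CoA lyase, had 1.32 and 1.71 in KD1 vs WT (1.51 ± 0.20 SE, limma adjusted p = 0.0248). It was below the limit in the CON comparisons, and its CON signal was above background in 4 of 8 channels. Its mean log2 signals were 5.56 and 5.69 in WT, 3.87 and 4.43 in CON and 6.76 and 7.34 in KD1, which puts the 3 cultures in the order CON, WT, KD1 with no overlap. The entry A_32_P29140, the last one of the stretch, with no current gene matched, had 1.56 and 1.07 (1.32 ± 0.21 SE, limma adjusted p = 0.0468). Against CON it had 1.52 and 1.58 in KD1 but −0.14 and 0.28 in WT. With normexp background correction and loess no 13q gene was called by limma. Without adjustment 20 had p under 0.05 there, again with no share of all genes to set beside it. The limma adjusted p of these 4 genes lay between 0.109 and 0.191. Their log2 ratios under that setting were −2.46 for C13orf27, −0.92 for A2LD1, 0.43 for CLYBL and 0.43 for A_32_P29140. In a separate-channel fit on the 6 extracts, with no replicate block, limma called C13orf27 (adjusted p = 0.00918) and A2LD1 (0.00949). It called neither CLYBL (0.112) nor A_32_P29140 (0.0659). A_32_P29140 was also lost with 3 residual degrees of freedom in place of 2 (limma adjusted p = 0.0595), with KD1 vs WT alone (0.0607) and with the mean over probes (0.0503). With no filter on dim probes both CLYBL (limma adjusted p = 0.0515) and A_32_P29140 (0.0868) were lost.

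**Figure D4:**
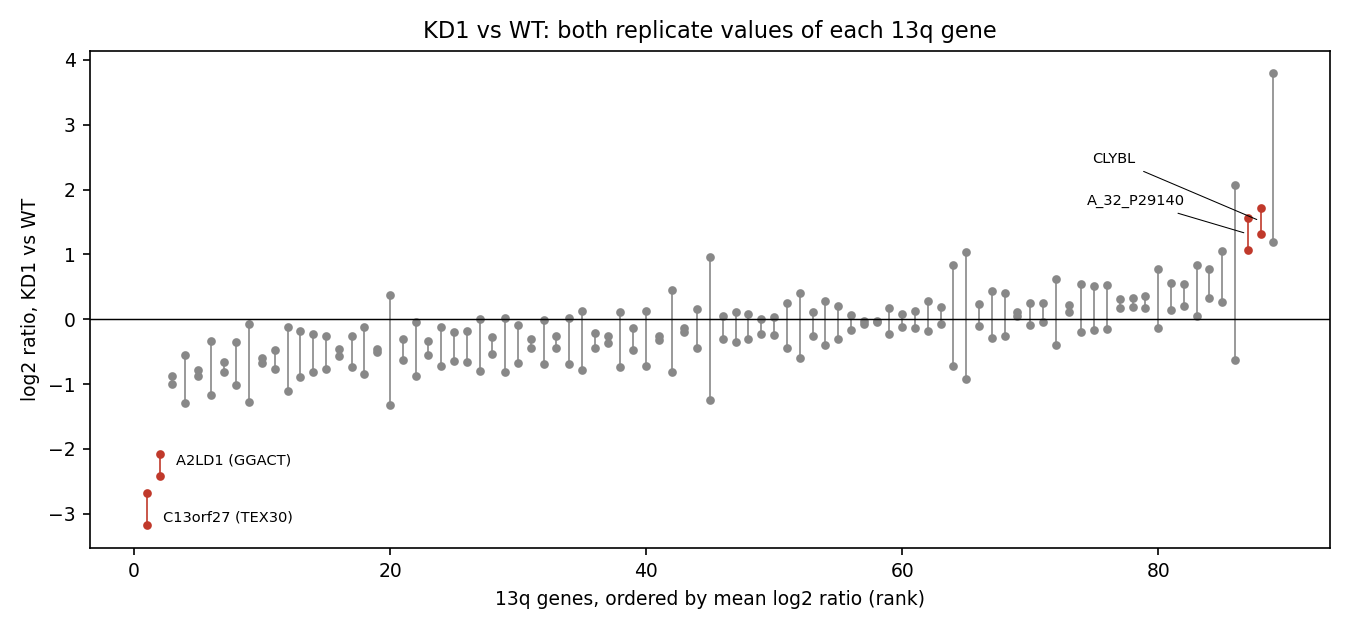
Log2 ratios of the 89 tested 13q genes in KD1 vs WT, ordered by mean; the points joined by a line are the 2 biological replicates of a gene, and red marks the 4 genes called by limma. C13orf27 and A2LD1 lie below −2 in both replicates, and most other genes lie near or slightly below 0.

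For the 3 called genes that have a current symbol, the 250 bases before the transcript start are shown, to let their upstream sequences be read beside each other; they are from RefSeq for GRCh38.p14, written 5′ to 3′ on the strand of the gene, with CG dinucleotides in capitals. TEX30 is at chr13:102773787-102774036 on the minus strand, GGACT (the first of 2 listed starts) at chr13:100588790-100589039 on the minus strand and CLYBL at chr13:99606440-99606689 on the plus strand.
TEX30: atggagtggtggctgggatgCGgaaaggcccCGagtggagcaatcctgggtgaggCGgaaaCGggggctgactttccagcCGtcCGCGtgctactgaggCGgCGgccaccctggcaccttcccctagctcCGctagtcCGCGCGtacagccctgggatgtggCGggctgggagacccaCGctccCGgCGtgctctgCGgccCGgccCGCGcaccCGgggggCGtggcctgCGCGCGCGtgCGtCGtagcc
GGACT: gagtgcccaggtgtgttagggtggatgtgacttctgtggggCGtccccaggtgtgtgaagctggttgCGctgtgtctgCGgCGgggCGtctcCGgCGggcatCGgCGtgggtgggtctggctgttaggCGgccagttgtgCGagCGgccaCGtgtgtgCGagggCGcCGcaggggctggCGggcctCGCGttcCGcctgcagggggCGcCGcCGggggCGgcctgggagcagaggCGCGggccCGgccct
CLYBL: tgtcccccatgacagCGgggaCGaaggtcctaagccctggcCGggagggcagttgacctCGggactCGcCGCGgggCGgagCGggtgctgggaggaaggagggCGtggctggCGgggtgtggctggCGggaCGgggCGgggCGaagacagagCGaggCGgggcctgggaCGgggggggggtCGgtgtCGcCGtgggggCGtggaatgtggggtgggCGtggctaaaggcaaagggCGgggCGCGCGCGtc

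These windows hold 29, 27 and 28 CG dinucleotides, as many as or more than 87.6%, 84.1% and 85.9% of the 35116 starts of the table. Over the 40 shifted protein-coding genes that could be matched, of 44, the median was 22.5 (quartiles 18.8 and 32.0), over the 6 protein-coding genes without the shift 19, and 17 over all protein-coding genes that the table holds. The letters ATTA, the core of homeodomain sites such as that of PAX3, were searched on both strands (ATTA or TAAT, which can overlap). They were found in 14 of the 40 shifted genes (35.0%), in 1 of the other 6, and in 39.7% of all protein-coding genes, and in none of the 3 windows printed here. The composite site in the paper also has a paired-domain part, GTT(C/A)(T/C), which its reporter assays required. That part was not searched, so these counts do not show whether it is present in any window. The second listed start of GGACT held 13 CG, as many as or more than 55.2% of starts, and 1 match to ATTA or TAAT. At SOX21 the window held 11 CG and at the first listed start of DCT 16.

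The other 104 genes were below the limit in at least 1 CON comparison. They include the protocadherins PCDH17, PCDH20 and PCDH9 and the SLITRK and ZIC genes, and no statement on a shift can be made for the 67 that were never well above background. Of the rest, 10 were well above background on all 8 channels of each culture. PCDH17 was not well above background in KD1 and well above it in 5 of 8 channels of WT. The mean WT signal was at least 1.30-fold higher than that of KD1. This bound holds for the mean of the WT extracts, whose log2 signals were 3.61 and 4.81, near background. FAM155A was well above background in 4 channels of KD1 and none of CON, with a measured mean log2 signal of 3.79 against 2.65, and no bound above 1 could be given.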

How the data were processed

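The authors extracted each array with Agilent Feature Extraction 10.5.1.1 (detrending, linear and lowess dye normalization) and deposited linear intensity values per spot. They also deposited a log10 ratio per spot and a series table with a log2 ratio per probe. Positions are on NCBI36. The 13q genes, gene lists and tests were chosen with earlier results of these data known.

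Log2 ratios were computed from the processed intensities, with Cy5 and Cy3 taken from the labels, turned so that the first culture is the numerator, and averaged over spots of a probe and over each dye-swap pair. The limit was the 99th percentile of an array's negative controls (1.81 to 40.6 over arrays and channels); a probe passed when each array of a comparison had at least 1 channel over it after background subtraction. The median background-subtracted signal was 33.0 to 78.8, no spot was saturated, and precision is limited by the few arrays. A gene was read from its brightest probe, and current names were matched for 92 of 178 genes through a RefSeq table of GRCh38.p14 (88 by accession, 3 by symbol and 1 by synonym).

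KD1 vs WT was tested two-sided with lmFit and eBayes of limma 3.58.1 (R 4.3.3) on the 6 replicate ratios with a coefficient per comparison, residual degrees of freedom of 2 (a plain fit has 3, but the 3 ratios of a replicate share 3 extracts), and Benjamini-Hochberg adjustment over 24884 probes (threshold 0.05). The labels call the replicates biological without saying how the cultures were separated, so p-values measure the spread between these samples only. Tested on simulated data for KD1 vs WT with 24884 probes, of which 200 were changed by a log2 ratio of 2, this fit recovered 65.0% with 4.4 false calls on average over 5 runs. Separate-channel values per extract came from Aquantile normalization. Genes are named by these rules: those with all 4 CON values at or below 0, the 8 highest, the 6 brightest, those called in KD1 vs WT, A2LD1 and C13orf27, those at the ends and just outside, those nearest to and farthest from the median of each list, those not above background in CON, and those whose probes differ by over 1. A gene that these rules name is not reported here by name or in the plots by role, and it stays in the counts and medians. MIR17HG, PCCA, KDELC1, BIVM, the other genes beside them and the examples of further list members were chosen after their values were seen. Alternatives were normexp (offset 50) with loess, median centring, the series table, other filters, the mean over probes, each dye orientation, each replicate left out, separate channels with and without the replicate block, KD1 vs WT alone and, added after seeing the data, 3 residual degrees of freedom. Python 3.11.15, pandas 2.3.3, numpy 2.4.6 and matplotlib 3.10.9 were used.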

Additional observations from a re-analysis of the deposited data

Results flagged for a closer look

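In 4 of the 13q genes the difference from CON was not the same in KD1 and WT, by limma on KD1 vs WT. The log2 ratios were −2.25 for A2LD1, −2.93 for C13orf27, 1.51 for CLYBL and 1.32 for A_32_P29140. The single KD1 clone is behind each of these values. In KD1 vs WT the knockdown, the clone, the vector and puromycin cannot be told apart. Groups of 2 replicates were too small to look for a sample that stands apart.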

How the results depend on the processing

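The median log2 ratio of the expressed 13q genes in WT vs CON was 0.81 with normexp and loess, 0.99 on dye-swapped arrays only and 0.26 with no filter on dim probes, where all 178 genes enter; in KD1 vs CON it was 0.51 with normexp and loess and 0.20 with no filter. In KD1 vs WT the median turned from −0.14 to 0.019 with no filter and was −0.22 with the mean over the probes of a gene. Leaving out 1 replicate gave medians of 0.85 to 0.92 in WT vs CON, 0.66 to 0.78 in KD1 vs CON and −0.21 to −0.10 in KD1 vs WT, with 56 to 59 genes above 0 in all remaining values and 7 to 10 at or below 0 (10 without replicate 2); these counts rest on 2 values in place of 4. KD1 vs WT calls could not be tested with 1 replicate, which leaves no residual degrees of freedom. The number called in KD1 vs WT, 4, became 0 with normexp and loess, 2 with median centring, 7 on dye-swapped arrays only, 2 in separate channels with no replicate block and 2 with the replicate block; with 3 residual degrees of freedom, an alternative chosen after seeing the data, it was 3, without A_32_P29140. Under both block fits and median centring the 2 were A2LD1 and C13orf27, and CLYBL and A_32_P29140 were not called (limma adjusted p between 0.0659 and 0.112). With no filter 3 genes were called, all lower in KD1, so neither CLYBL nor A_32_P29140 was among them. The mean over probes gave 3 and KD1 vs WT alone gave 4, both without A_32_P29140. Replicate differences of the extracts were correlated across 21870 probes. The coefficients were −0.02 for WT and CON, −0.07 for WT and KD1 and 0.54 for CON and KD1. Extracts of CON and KD1 with the same number thus deviated together, while those of the other pairs hardly did. The ratios are formed within a replicate number, as the arrays were. The separate-channel fit was therefore run with and without the replicate block. Over the named genes and outside the settings that leave out a replicate, 992 values kept their direction and call or stayed within the replicate SD. Another 104 moved by more, 15 lost a call and 2 gained one. Many of the 992 could not have moved. The other filters, KD1 vs WT alone and 3 residual degrees of freedom keep each gene's main ratios, and the series table gave nearly identical ones. In these settings only a call in KD1 vs WT could change, so their unchanged ratios are no sign of stability. Of the settings run, the number of shifted genes was lowest, 52, in separate channels.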

Other observations

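Among the genes below the limit yet well above background on all channels, ZIC5, a zinc finger factor, had log2 ratios of 0.98 and 2.01 in WT vs CON, and 0.51 and 1.02 in KD1 vs CON. The entry BU929651 had means of 1.35 (WT vs CON) and 1.02 (KD1 vs CON). KCTD12 had means of 1.097 and 0.05 in the same order, and the entry A_24_P418517 had −0.34 and −0.13. The entry A_32_P178045 had replicate values far apart in KD1 vs WT, 1.19 and 3.79, and was not called (limma adjusted p = 0.127).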
